A study of Homo sapiens with 8 samples.

Results

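The integrin and focal adhesion genes examined here are 38 protein-coding genes, of 19974 on chromosomes 1 to 22 and X. They were chosen by name and comprise 10 integrin subunits, 2 other surface receptors, 17 proteins that link integrins to actin, 4 signalling proteins and 5 proteins with LIM domains. A gene was counted as carrying a peak where a peak lay whole within its span on GRCh38. The peaks came from RNA immunoprecipitation and sequencing (RIP-seq) with an antibody against METTL3 in the human prostate cancer lines LNCaP and PC3. LNCaP is androgen-sensitive and PC3 androgen-independent, and both were established from metastases. The labels name no treatment or genetic change, but LNCaP was grown with 20% fetal bovine serum and PC3 with 10%. Per the labels, the METTL3 antibody received 80% of a lysate and the input 10%, which gives 4 groups (IP and input of each line) of 2 replicates. A further 10% is listed for IgG, but none of the 8 samples is an IgG library. Binding that is not specific to METTL3 was therefore not tested here. The deposited result is 1 list of peaks per line, so the values below have no error between replicates and their sequencing depth is unknown.

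METTL3 is the methyltransferase that places N6-methyladenosine on RNA. Integrins are paired alpha and beta chains that bind the matrix outside the cell. On the inner side, talin and kindlin activate them, and talin, vinculin, filamin, tensin and alpha-actinin tie them to actin, while FAK and paxillin carry the signal onward. Prostate epithelium uses these contacts to hold to its basement membrane, and CD44 binds hyaluronan beside them.

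Most peaks lay on a few genes, above all on FLNA, which links integrins to actin, and in LNCaP on the receptor gene PTPRF. Of the 10 integrin subunits 9 had none, but other protein-coding genes of like length would give only 0.776 genes with a peak in LNCaP and 0.311 in PC3. In LNCaP 6 of the 38 genes carried a peak (15.8%), against 5.62% of all protein-coding genes. In PC3 it was 9 of 38 (23.7%), against 1.83% of all. Peaks in both lines were present on 4 of the genes, FLNA, TLN1, ACTN4 and KANK2 (1.16% of all protein-coding genes had them in both). PTPRF and VCL carried peaks in LNCaP only, and ITGA3, FLNC, TNS3, ACTN1 and LMO7 in PC3 only. The other 27 genes carried none in either list. Each line had 31 peaks on the 38 genes, or 1.19% of the peaks listed for LNCaP and 3.0% of those for PC3. FLNA alone held 15 of the 31 in LNCaP and 16 of the 31 in PC3.

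**Figure D1:**
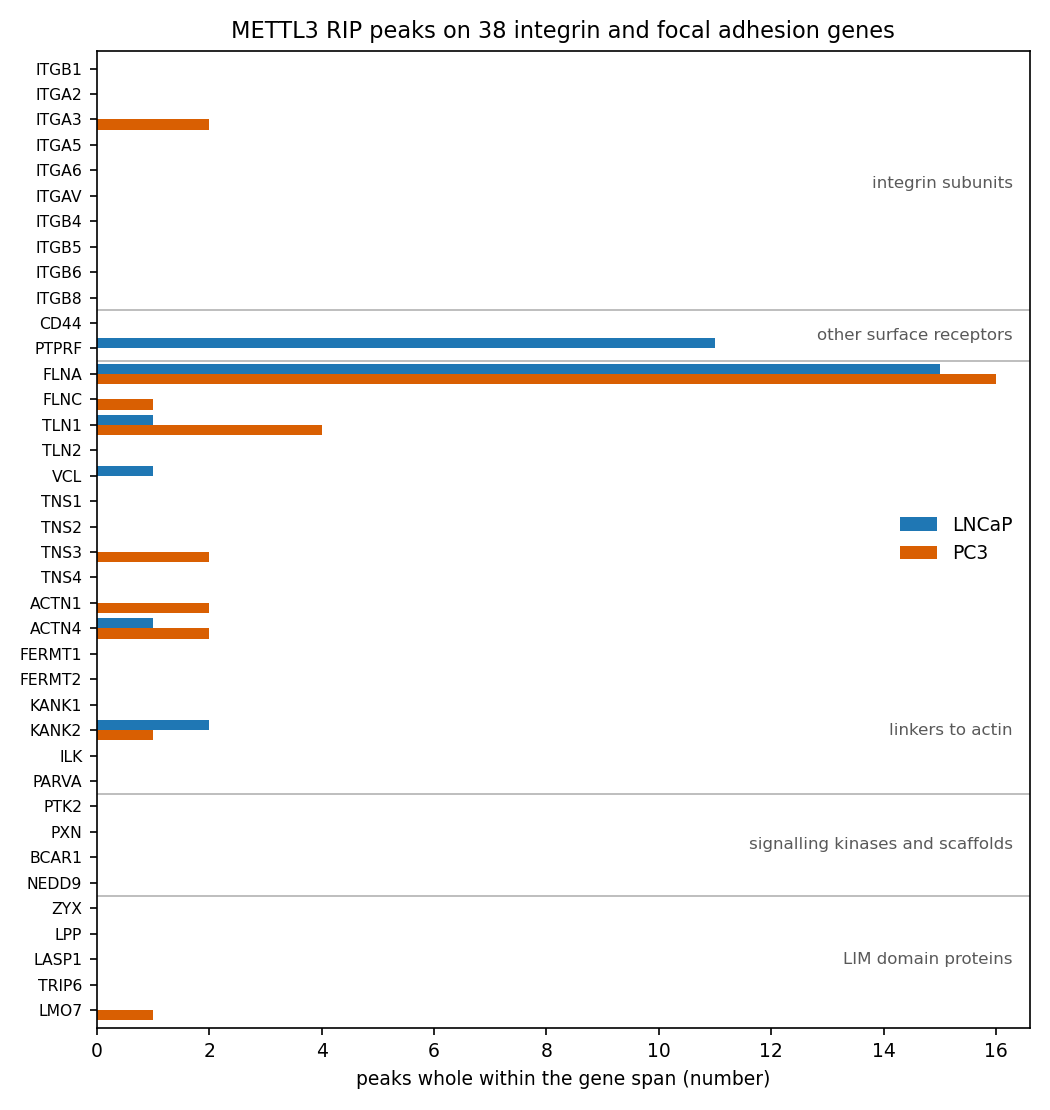
Number of peaks (x axis) whole within the span of each of the 38 genes (y axis, grouped by role), in LNCaP (blue) and PC3 (orange). FLNA has 15 and 16 peaks, PTPRF has 11 in LNCaP only, and 27 genes have none.

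Neither ITGB1 nor CD44 carried a peak. ITGB1 encodes the beta 1 chain shared by many integrins (chromosome 10, 32900318 to 32958230, minus strand), and no peak of either list lay whole within it or touched it. Among the 1917 other protein-coding genes whose span was within 20% of its 57913 bp, 6.83% carried a peak in LNCaP and 2.5% in PC3. CD44 spans 93232 bp, and of 1502 genes of like length 8.19% and 3.53% carried a peak, so a gene of either length usually had none. The lists hold no expression level, and a transcript that is rare in the cell and one that METTL3 does not hold cannot be told apart from the absence of a peak.

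Long genes carried peaks more often. Among protein-coding genes outside the set, the share with a LNCaP peak was 2.63% for spans under 30000 bp and 14% for spans from 120000 bp up, and with a PC3 peak 0.673% and 4.14%. The adhesion genes are long, with a median span of 84965 bp against 24170.5 bp over all protein-coding genes. Those with a peak were nevertheless of all lengths: under 30000 bp 1 of 8 carried one in LNCaP and 2 of 8 in PC3, and from 120000 bp up it was 1 of 11 and 2 of 11. The adhesion genes were therefore set beside other protein-coding genes within 20% of each one's span (121 to 2183 genes for each). On average 8.53% of these carried a peak in LNCaP and 2.88% in PC3. The adhesion genes' share was thus 1.85 times that of like-length genes in LNCaP (95% exact Clopper-Pearson interval of the 15.8%, 6.02 to 31.3%) and 8.21 times in PC3 (interval of the 23.7%, 11.4 to 40.2%). The interval covers counting error only. The genes were picked by name and not drawn at random, so the interval does not measure how far chance could give these shares. No test was run on the list, and the genes were chosen with results of these data known.

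**Figure D2:**
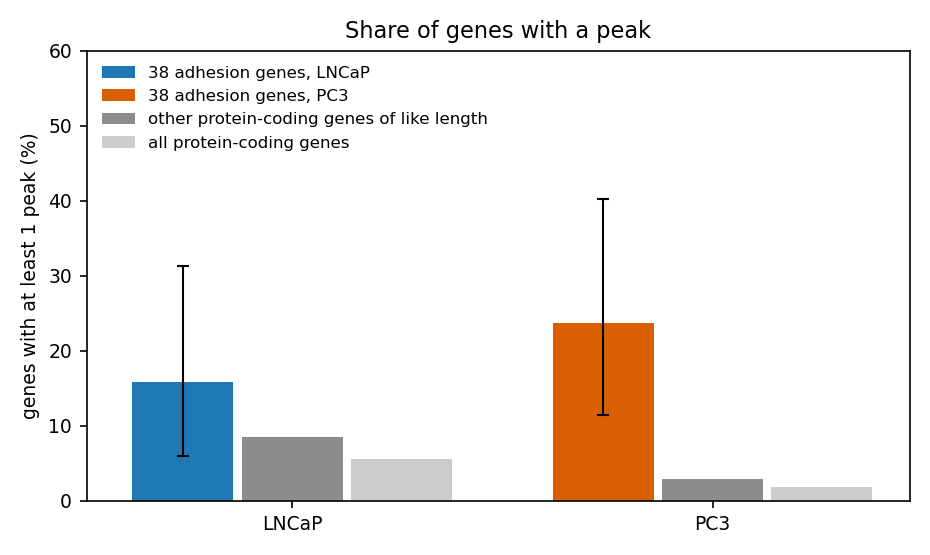
Percent of genes with at least 1 peak (y axis) in each line for the 38 adhesion genes (coloured, with the 95% exact interval), for other protein-coding genes of like length (dark grey) and for all protein-coding genes (light grey). The adhesion genes stand at 15.8% and 23.7%, like-length genes at 8.53% and 2.88%.

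The order of the lines on these genes, 6 in LNCaP and 9 in PC3, is in the lists as deposited the reverse of that over all protein-coding genes, of which 1122 carried a peak in LNCaP and 365 in PC3. The LNCaP list admits weaker peaks. Its largest p is 0.0178, and that of PC3 is 1.59e-05. At or under the PC3 limit, 389 LNCaP peaks were left, and 265 protein-coding genes (1.33%) carried one, fewer than the 365 in PC3. The order over all genes thus turned to that of the adhesion genes. Of these, 2 were left in LNCaP, FLNA and PTPRF, with 4 peaks (5.26%, or 2.58 times the 2.04% of like-length genes), and the 9 in PC3 stayed. Among genes with a PC3 peak, 4 of the 9 adhesion genes (44.4%) also carried a LNCaP peak, against 64.2% of like-length genes with a PC3 peak. Among genes with a LNCaP peak, 4 of 6 adhesion genes (66.7%) carried a PC3 peak, against 23.9% of like-length genes.

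Of the 10 integrin subunits, 0 carried a peak in LNCaP and 1 in PC3, where like-length genes would give 0.776 and 0.311 genes. ITGA3, the alpha 3 chain of a laminin receptor (chromosome 17, 50056110 to 50090481), had 2 plus-strand PC3 peaks. The peak at 50068111 to 50070924 had a fold of 3.97 and a p of 1.52e-10. The other, at 50087819 to 50089117, had a fold of 4.0 and a p of 1.43e-13 and ended 1364 bp before the end of the gene. All folds and p-values of peaks here are the authors' own, and ranks were computed from the deposited p-values. Both ITGA3 folds were under the median of the PC3 list, 5.74. A PC3 peak at 75751643 to 75757974 on chromosome 17 ran into the span of ITGB4, the beta 4 chain of hemidesmosomes, by 6176 of its 6332 bp. It was not counted for ITGB4, since 156 bp of it lay outside the span. The peak was on the minus strand and whole within GALK1 (75751469 to 75765192), which encodes galactokinase and overlaps ITGB4. The genes ITGA2, ITGA5, ITGA6, ITGAV, ITGB5, ITGB6 and ITGB8 were touched by no peak.

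PTPRF, a receptor tyrosine phosphatase of cell contacts (LAR), was the only surface receptor with peaks in LNCaP. The gene (chromosome 1, 43522051 to 43623666, plus strand) carried 11 LNCaP peaks and 0 PC3 peaks. Their folds ran from 3.21 to 8.38 with a median of 5.67. The 3 highest folds lay next to each other, at 8.20 (43591297 to 43597809), 8.38 (43597859 to 43603952) and 8.26 (43604002 to 43604915). The peak with the fold of 8.38 had the smallest p, 1.88e-10, and ranked number 68 of the 2616 LNCaP peaks by p. Of the 11 peaks, 8 lay in the last of 3 equal parts of the gene span and 1 in the first. Only 2 of 1444 like-length genes had as many LNCaP peaks. The p-values of 2 of the 11 peaks were under the largest p of the PC3 list. Whether PC3 cells express PTPRF at a like level was not tested.

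FLNA encodes filamin A, which crosslinks actin and binds the tails of beta integrins. It lies on chromosome X (154348531 to 154374634, minus strand, 26104 bp), and all of its peaks were on the minus strand. The 15 LNCaP peaks had folds from 3.54 to 16.9 with a median of 5.68, and the 16 PC3 peaks had folds from 4.74 to 7.92 with a median of 6.12. Their p-values ran from 1.45e-07 to 0.0119 in LNCaP and from 5.28e-30 to 6.90e-06 in PC3. Only 5 genes had more peaks in LNCaP and 2 in PC3. Of 2177 genes of like length, 1 had at least 15 peaks in LNCaP, and in PC3 the most was 8. Between neighbouring FLNA peaks, 3 of 14 gaps in LNCaP and 7 of 15 in PC3 were under 50 bp. The number of peaks is therefore not necessarily a number of separate sites.

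The FLNA stretches covered in LNCaP were largely covered in PC3 as well, and PC3 covered others besides. In LNCaP they covered 7134 bp (27.3% of the span, introns included), and in PC3 14716 bp (56.4%). Of the stretches covered in LNCaP, 95.8% was also covered in PC3, and 46.4% the other way round. A peak of the other line overlapped 13 of the 15 in LNCaP and 8 of the 16 in PC3 by at least 1 bp on the same strand. Short peaks were more common in LNCaP, where 10 peaks spanned under 200 bp, against 5 in PC3. The first peak began 3431 bp from the start of the gene in LNCaP and 3331 bp in PC3, and the last ended 319 and 269 bp before its end.

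The largest FLNA fold, 16.9, was on a 101 bp LNCaP peak (154348850 to 154348950), which lay whole within a PC3 peak (154348800 to 154348975) with a fold of 5.81. Its p of 8.58e-04 ranked only number 1096 in LNCaP. The LNCaP peak with the smallest p had a fold of 9.90 (154364605 to 154366035) and lay within the PC3 peak with the smallest p, which had a fold of 7.04 (154364134 to 154366418). Around the middle of the gene PC3 had 2 peaks that LNCaP lacked, at 154361397 to 154361771 with a fold of 7.92 and at 154361987 to 154362087 with a fold of 7.26. LNCaP lacked peaks over 4877 bp there. Across the 14 overlapping pairs on FLNA the PC3 fold was the higher in 7. The folds were made separately in each list and were not tested against each other.

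**Figure D3:**
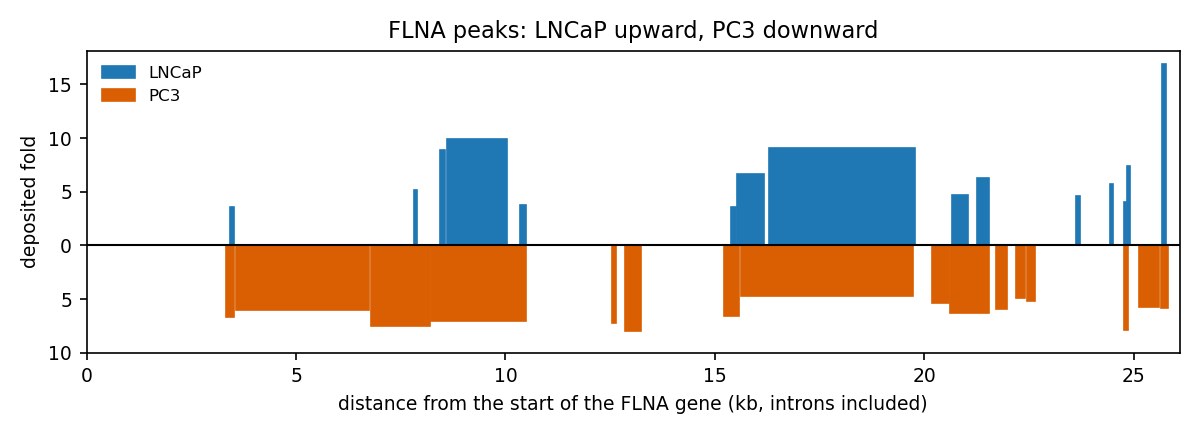
Peaks of FLNA by distance from the start of the gene (x axis, kb, introns included) and deposited fold (y axis), LNCaP upward and PC3 downward, each bar as wide as its peak plus a thin outline. Most of what is covered in LNCaP (95.8%) is covered in PC3 too, but only 46.4% the other way round; the highest bar is the LNCaP peak with a fold of 16.9 near the end of the gene.

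FLNC, the filamin of muscle, had no LNCaP peak and 1 PC3 peak on its own strand (plus strand of chromosome 7, 128858534 to 128858684), where the fold was 3.83 and the p 7.79e-08. A second PC3 peak (128853315 to 128862617, fold 3.27) overlapped FLNC by 5958 bp on the minus strand. It lay whole within the antisense gene FLNC-AS1 (128850162 to 128862626) and was not counted, since 3345 bp of it lay outside the FLNC span.

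Talin 1 and vinculin stand next to each other in the chain from integrin to actin. Talin 1 had its peaks mainly in PC3, vinculin in LNCaP only. TLN1 (chromosome 9, 35696948 to 35732195, minus strand) had 1 LNCaP peak, at 35724326 to 35724588 with a fold of 3.62 and a p of 0.00990. That peak lay whole within the PC3 peak of smallest p, 1 of 4, at 35724201 to 35725600, with a fold of 9.08 and a p of 6.30e-21. The other PC3 folds on TLN1 were 5.32, 8.72 and 7.20. Of the 4 PC3 peaks 3 lay in the first part of the gene, unlike most adhesion peaks. VCL (chromosome 10, 73998116 to 74121363, plus strand) had a 51 bp LNCaP peak at 74090052 to 74090102, with a fold of 9.42 and a p of 3.05e-05, and no PC3 peak. This p is just above the PC3 limit. TLN2, the second talin, carried no peak.

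The alpha-actinins, which crosslink actin filaments, carried the longest peaks of the set. ACTN4 (chromosome 19, 38647649 to 38731589, plus strand) had a peak that began at the same base in both lines, 38647669. It ended at 38704935 in LNCaP, with a fold of 3.40 and a p of 0.00906, and at 38705010 in PC3, with a fold of 4.44 and a p of 7.02e-24. From its first to its last base it spans 68.2% of the gene in LNCaP, introns included. The lists do not give which bases in between held reads. PC3 had a further ACTN4 peak at 38724023 to 38727029, with a fold of 5.78. ACTN1 (chromosome 14, 68874128 to 68979302, minus strand) had no LNCaP peak. In PC3 it had a peak of 72312 bp (68875117 to 68947428) with a fold of 6.08 and a p of 4.96e-49, which ranked number 20 of the 1033 PC3 peaks and had the smallest p on any of the 38 genes. A 51 bp peak (68874917 to 68874967) with a fold of 5.05 lay 789 bp before the end of the gene.

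Peaks also reached into the windows around annotated starts (250 bases before to 50 after) of both alpha-actinin genes, and of no other adhesion gene with a start in the RefSeq table used (32 of the 38 had one). A further PC3 peak at ACTN1 (68978684 to 68979350, fold 4.30, p 1.72e-25) covered the gene start. It ran 48 bp past it, and was for this reason not counted as whole within the gene. The ACTN4 peak began 20 bp downstream of the outermost start in both lines and did not cover it. A second annotated start of ACTN4, at 38694121, lay between the ends of that long peak in both lines. For ACTN1 a second start, at 68937951, lay between the ends of the long PC3 peak. The sequences below, from RefSeq on GRCh38.p14 and 5′ to 3′ on the gene's strand, show where these edges lie. Each holds 60 bases before the annotated start and 30 from it onward, and capitals mark bases inside the PC3 peak, 10 in ACTN4 and 78 in ACTN1. They are chr19:38647589-38647678 on the plus strand and chr14:68979273-68979362 on the minus strand.
ACTN4: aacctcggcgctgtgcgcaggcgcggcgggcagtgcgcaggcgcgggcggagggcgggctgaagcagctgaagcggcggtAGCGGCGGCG
ACTN1: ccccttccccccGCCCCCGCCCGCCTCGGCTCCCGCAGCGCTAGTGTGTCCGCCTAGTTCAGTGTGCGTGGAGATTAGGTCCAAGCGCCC
Both stretches are rich in G and C, 78.9% in ACTN4 and 71.1% in ACTN1. The letters GGAC, the core of the motif METTL3 methylates, were searched on both strands in the full windows of 250 bases before and 50 after the start. The ACTN4 window held them 1 time on the gene's strand and the ACTN1 window 4 times on the opposite strand. Of 22140 such windows of protein-coding genes 89.9% held GGAC on either strand, so these matches are common. None of the matches lay on the gene's strand in the transcribed part of the window, where 19.8% of the windows held GGAC. They are thus matches in DNA around the start and not in the RNA.

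Among the other linkers, KANK2, which binds talin and anchors microtubule capture at adhesions, had peaks in both lines at different places. KANK2 (chromosome 19, 11164270 to 11197865, minus strand) had LNCaP peaks at 11178697 to 11192832 with a fold of 4.22 and at 11176689 to 11178366 with a fold of 4.46. The PC3 peak was nearer the start, at 11195653 to 11195878, with a fold of 3.13, and overlapped neither. TNS3, a tensin, had no LNCaP peak. Its PC3 peaks, at 47369592 to 47400433 and 47369342 to 47369517 on chromosome 7 (minus strand), had folds of 8.07 and 9.40, the latter the highest PC3 fold on the 38 genes. The linkers TNS1, TNS2, TNS4, FERMT1, FERMT2, KANK1, ILK and PARVA carried no peak. In all, 5 of the 17 linkers carried a peak in LNCaP and 7 in PC3, where like-length genes would give 1.47 and 0.492.

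No signalling protein of the adhesion carried a peak in either line. These were the kinase FAK (PTK2), paxillin (PXN) and the scaffolds BCAR1 and NEDD9, and like-length genes would give 0.38 of the 4 in LNCaP and 0.115 in PC3. Of the 5 LIM domain genes, ZYX, LPP, LASP1 and TRIP6 had none, although LPP is the longest of the 38 genes at 737651 bp. LMO7 had 1 PC3 peak (plus strand of chromosome 13, 75840045 to 75842881), whose fold was 3.28 and whose p was 2.49e-17, rank 170 of the list.

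Along the gene span, adhesion peaks were most frequent in the last part, as were peaks in the whole lists. Taken by midpoint, this rests on genes with several peaks. With the peak of smallest p alone for each gene, the last part held 2 of 6 in LNCaP and 3 of 9 in PC3 (33.3% each), and the middle part 3 and 4. The 4 in PC3 include the long peaks of ACTN1, ACTN4 and TNS3, which reach into the last part. By the end of each peak nearer the gene end, the last part held 58.1% of all LNCaP adhesion peaks and 61.3% of those in PC3. By midpoint, the last of 3 equal parts held 17 of 31 peaks in LNCaP (54.8%, exact interval 36.0 to 72.7%). In PC3 it held 16 of 31 (51.6%, 33.1 to 69.8%). Over all peaks within protein-coding genes it held 46.6% and 58.1%, and both values lie inside the intervals. The first part held 5 LNCaP and 7 PC3 peaks, of which FLNA had 3 in each. Peaks of 1 gene share their transcript, so the intervals are too narrow. All 31 LNCaP peaks, and all 29 PC3 peaks on genes whose strand the table gives, were on the strand of the gene. Over the whole lists it was 96.5% and 96.6% of such peaks.

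**Figure D4:**
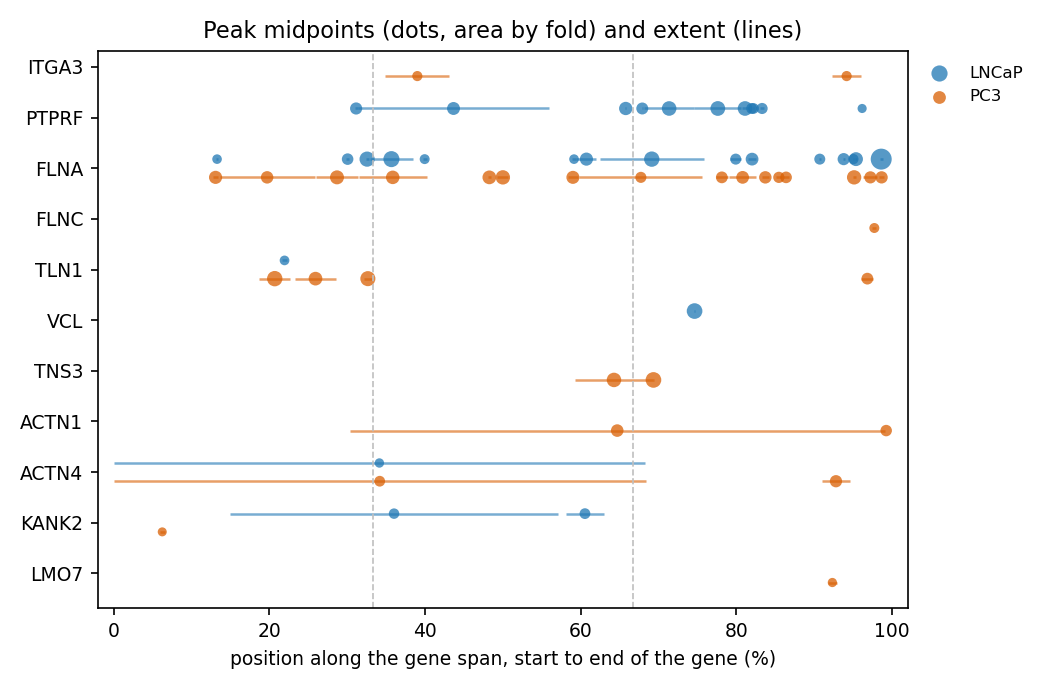
Midpoint (dots, area in proportion to the deposited fold) and extent (lines) of each peak along the gene span (x axis, percent from the start to the end of the gene) for the 11 genes with a peak (y axis). Dashed lines mark the 3 equal parts; TLN1 peaks lie mostly in the first, PTPRF and FLNA peaks mostly in the last.

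The folds on these genes lay around the medians of their lists. The median was 5.50 in LNCaP (exact order-statistic interval 4.46 to 6.82), where the whole list had 5.26, and 5.95 in PC3 (5.21 to 7.04), where the list had 5.74. These intervals too are too narrow, since peaks of 1 gene share their transcript. Of the 31 peaks in each line, 16 in LNCaP and 18 in PC3 were above the median of their list. Without FLNA the median fold was 5.13 in LNCaP and 5.32 in PC3, so in both lines it turned to below that of the list. With 1 peak per gene, chosen as above, the median was 6.42 in LNCaP and 4.44 in PC3. LNCaP peaks on the adhesion genes spanned 176 bp at the median (924.5 bp over the list), and those of PC3 476 bp (922 bp over the list). FLNA sets these values. Without it the median was 472 bp over 16 LNCaP peaks and 1400 bp over 15 PC3 peaks, so in PC3 it turned to above that of the list.

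**Figure D5:**
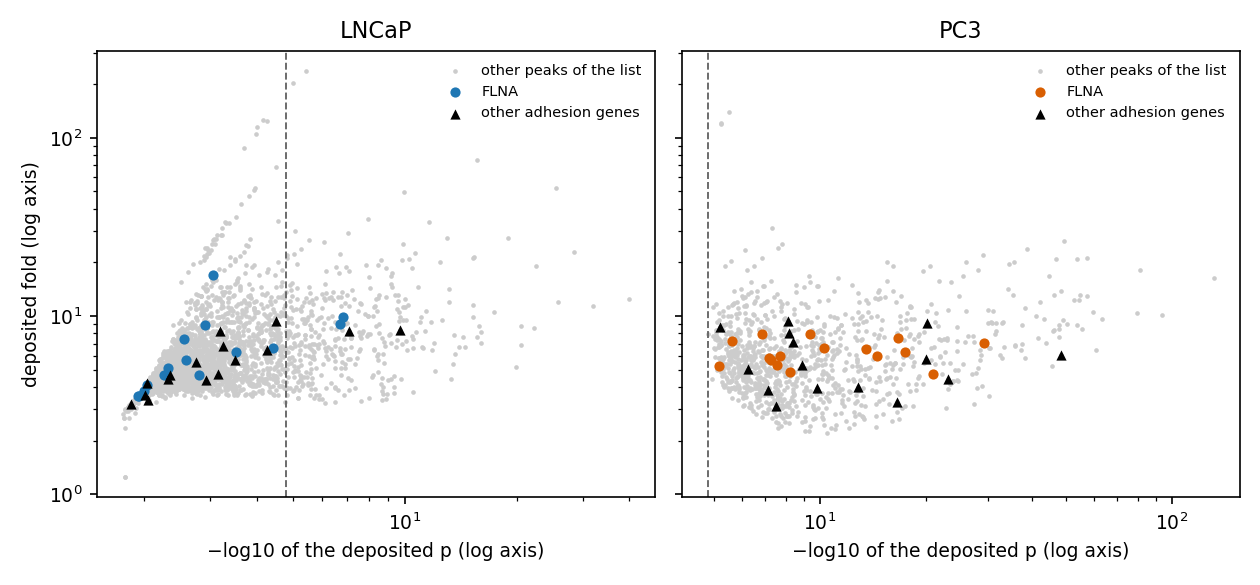
Deposited fold (y axis, log) against −log10 of the deposited p (x axis, log) for all peaks of each list (grey), FLNA peaks (coloured dots) and peaks of the rest of the 38 genes (black triangles). The dashed line is the largest PC3 p, 1.59e-05; 4 of the 31 LNCaP adhesion peaks reach it.

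A wider list of 85 other adhesion genes was looked up in the same way. It held 16 further integrin subunits, 26 linkers, 30 signalling genes, 6 matrix ligands and 7 partners of CD44. Of the 85, 10 carried a peak in LNCaP (11.8%), 7 in PC3 (8.24%) and 5 in both (5.88%). Over all protein-coding genes the shares were 5.62%, 1.83% and 1.16%, and the 85 were not matched for length. None of the 16 further integrin subunits carried a peak in either list, and at these shares a gene usually had none. Those in both included SVIL, FN1, EZR and MSN. FN1 encodes fibronectin, the ligand of several integrins, and had 14 LNCaP peaks with folds from 3.98 to 8.63 and 5 PC3 peaks with folds from 3.89 to 7.68. SVIL, which encodes the actin-binding supervillin, had 3 LNCaP peaks with folds from 3.86 to 6.48 and 4 PC3 peaks with folds from 7.15 to 11.4, on both strands in each line. Ezrin and moesin tie CD44 to actin. EZR had 4 LNCaP peaks with folds from 3.8 to 14.5 and 1 PC3 peak with a fold of 2.83, and MSN had 2 LNCaP peaks of 3.92 and 4.18 and 1 PC3 peak of 2.66.

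As a look at the labels of the lines, genes known to mark luminal, androgen-responsive prostate cells were looked up. Of 10 such genes 6 carried a peak in LNCaP, among them TMPRSS2, FOLH1, SLC45A3, KRT8 and KRT18, and 0 in PC3. Over all protein-coding genes the shares were 5.62% and 1.83%, so in PC3 a gene usually had none. Of the markers named, only FOLH1 had a LNCaP p (the authors' own, 2.10e-09) under the largest of the PC3 list. The counts of the lines are therefore not alike in their limit. The peak within KRT18 also lies within the span of KRT8. None of 6 mesenchymal or basal genes known from PC3, 4 fibroblast genes or 3 leukocyte genes carried a peak in either list, and a missing peak does not show that a gene is off.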

How the data were processed

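METTL3 RIP-seq of LNCaP and PC3 was deposited as 1 peak list per line, with position, strand, fold, p-value, FDR and score. The submitters' processing notes name fastp, STAR 2.5.3a, bedtools, deepTools and the build hg38. The peak caller, filters and handling of replicates, and how reads that match several places were counted, are not given in the sources used here. The fold is a linear ratio per peak as deposited, without a stated denominator. The deposited p-value was made by the authors with a test that is not stated, and the FDR equalled the Benjamini-Hochberg adjustment over the listed peaks. The score, as deposited, is −log2 of that FDR.

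Gene spans came from a RefSeq table (GRCh38.p14) and strands from its table of starts, or from the peak where a gene had none there (ITGA3 among genes with peaks). Peaks were assigned with Python 3.11.15, pandas 2.3.3, numpy 2.4.6 and scipy 1.17.1, tested on simulated peaks. Position is that of the peak's midpoint, in the direction of transcription. Overlap needed 1 bp on the same strand. No test between groups was possible, since no list holds values per sample. The members and gene lists were chosen with earlier results of these data known. Every adhesion gene with a peak is named, with ITGB1 and CD44, and of the other adhesion genes those with a peak in both lines, except items that are not reported here. Alternatives were another overlap rule, strand, p, fold and FDR limits, joined peaks, other length windows and 1 peak per gene. Position was also taken at the end of the peak nearer the gene end. Leaving out FLNA (peak spans too) was chosen after seeing the data.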

Additional observations from a re-analysis of the deposited data

How the results depend on the processing

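No paired analysis was possible because each line has a single peak list without columns for its replicates; leaving out a replicate could not be run either. Of 65 alternative values, 53 stayed within 1.5 times the count, or inside the 95% exact interval for other values, 11 moved and 1 reversed. At p-values up to the largest of PC3, adhesion genes with a peak numbered 2 in LNCaP and 1 in both lines, LNCaP peaks on them numbered 4, their median fold was 8.72 and 75% lay in the last part of the gene. The counts fall because fewer LNCaP peaks are admitted, and the fold and the share rest on those 4 peaks, on FLNA and PTPRF. A fold of at least 4 left 1 gene in both lines, FLNA. Leaving out FLNA left 16 peaks in LNCaP and 15 in PC3. Restricted to genes with a peak in the other line, the share over that of like-length genes was 0.692 in LNCaP and 2.79 in PC3; only 9 and 6 adhesion genes enter. With 1 peak per gene, 33.3% of peaks lay in the last part in each line, and the median fold was 6.42 in LNCaP and 4.44 in PC3. PC3 had more adhesion genes with a peak than LNCaP under each of the 7 alternatives for that count, but most of these could not have turned the order. The limits on p and FDR remove no PC3 peak, and leaving out FLNA takes 1 gene from each line. The rules on strand and on peaks held by a single gene left both counts unchanged, at 6 and 9. Depth is unknown in both lists.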

Other observations

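Of the wider list of adhesion genes, 7 carried a peak in a single line (those below were named after their values were seen). LNCaP only had peaks on LIMS1 (fold 6.25), EVL (3.16), CRK (6.05), PAK4 (6.25) and DOCK1 (4 peaks, folds from 4.03 to 6.90). The DOCK1 peaks lay on both strands, 3 on the plus and 1 on the minus strand. LIMS1 encodes PINCH, the partner of ILK, and DOCK1 the Rac activator that acts with CRK. TNC, the matrix glycoprotein tenascin C, had a peak in PC3 only (fold 5.95). The p-values of the 5 LNCaP genes were all above the largest PC3 p, and no peak of the PC3 list had a p that large.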
